A study of Mus musculus with 12 samples.

Results

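The regions described here were the AGO2 binding peaks of 6 ubiquitin ligase genes of skeletal muscle: the TRIM family genes Trim63, Trim55 and Trim54 and the F-box genes Fbxo32, Fbxo40 and Fbxo30. A peak was taken as a member when it overlapped one of these genes by at least 1 nt on the gene's own strand, with no threshold on its value. The rule found 619 of the 713343 listed peaks in 4 AGO2 libraries, of which 86 lay in Trim63, 118 in Trim55, 87 in Trim54, 203 in Fbxo32, 85 in Fbxo40 and 40 in Fbxo30. The same positions gave 619 of the peaks in 4 further lists that set the genotypes against each other directly. Trim63 was a target named by the study, and the other genes were added as relatives in sequence family or in role.

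Each peak was measured by chimeric AGO2 eCLIP, in which RNA cross-linked to the Argonaute protein AGO2 is immunoprecipitated (IP) and sequenced beside an input library of the same lysate. The tissue was whole tibialis anterior muscle of 6-month-old male mice. WT mice carried the label strain C57BL/6. Mice of the mir-486 KO group (genotype miR-486-/-, label strain FVB N/J, given in the methods as backcrossed to C57BL/6J, which the labels do not settle) lacked the miR-486 hairpin, which lies in an intron of Ank1, in every cell. Each genotype had 1 total IP library in each of 2 sets, set 1 and set 2, and which animals went into which set was not given in the sources used here. Libraries amplified for miR-486 were not analysed here.

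Muscle wasting runs through a small group of E3 ubiquitin ligases, the enzymes that choose which proteins are tagged with ubiquitin and degraded by the proteasome. Trim63 (MuRF1) tags thick filament proteins, and Fbxo32 (atrogin-1, MAFbx) is the substrate receptor of an SKP1-cullin-F-box complex. Both are induced by FOXO transcription factors when AKT signalling falls, and both are textbook markers of atrophy. MicroRNAs guide AGO2 to transcripts by pairing their seed, bases 2 to 8, with a complementary word, most effectively in the 3′ UTR, so AGO2 peaks show where such pairing can occur without naming the guide.

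The sequences that bear on the results are shown first, with the 7-nt seed word in capitals in each 30-nt window of the GRCm38 genome, on the strand of the gene. The first pair came from the Trim63 3′ UTR, under the strongest Trim63 peak of all 4 libraries. They hold a miR-23 word and a miR-29 word.
Trim63 3′ UTR, miR-23 word, chr4:134329161-134329190: tatgtttttaaAATGTGAtttttgtatata
Trim63 3′ UTR, miR-29 word, chr4:134329200-134329229: gtatgccaattTGGTGCTttttgtacgaga
The next pair holds the word of miR-486-5p, the microRNA absent from the KO mice, once in the Trim63 coding sequence and once in the Fbxo32 3′ UTR.
Trim63 CDS, miR-486-5p word, chr4:134323139-134323168: ctgatcctccaGTACAGGgagcagctggaa
Fbxo32 3′ UTR, miR-486-5p word, chr15:58179892-58179921: gggttggtactGTACAGGcggatggagtct
The last pair lay under peaks listed in all 4 libraries, in the Fbxo32 3′ UTR and in the Fbxo40 coding sequence.
Fbxo32 3′ UTR, let-7 word, chr15:58180907-58180936: cacacaatggtCTACCTCtaaaagcatagc
Fbxo40 CDS, miR-206 word, chr16:36970404-36970433: tggactcagaaACATTCCttcacgagaaca
The mature microRNAs with these seeds, from RefSeq (GRCm38.p6), with the seed in capitals, were as follows.
miR-23a-3p: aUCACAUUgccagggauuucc
miR-29a-3p: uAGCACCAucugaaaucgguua
let-7a-5p: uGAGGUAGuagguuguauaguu
miR-206-3p: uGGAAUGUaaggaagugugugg

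The labels and the tissue were checked on the same lists. At the Mir486 hairpin (chr8:23142555-23142682, plus strand) 2 peaks were listed in WT set 1, 4 in WT set 2 and 0 in both KO libraries, and all 6 were enriched over input. All 10 muscle fibre markers had listed peaks in every library, 1404 to 2882 in all, against 98 to 275 over 4 fibroblast markers, 34 to 211 over 4 endothelial, 15 to 95 over 4 macrophage, 9 to 17 over 4 adipocyte and 6 to 11 over 4 red cell markers. These totals were not corrected for the number or the length of the genes, and the muscle fibre markers include the very long Ttn and Neb. Of the muscle fibre marker peaks, 123 were enriched in WT set 1 (8.76%), 1 in KO set 1 (0.0612%), 14 in WT set 2 (0.486%) and 13 in KO set 2 (0.453%). Over all peaks the shares were 3.57%, 0.848%, 1.42% and 1.23%, so these markers stood above them in WT set 1 alone. Of the red cell marker peaks 5 of 7 were enriched in WT set 1 and none elsewhere. WT set 1 was thus high there too, and the part of this in the results below was not tested. In whole muscle, fewer cells of a type and less RNA per cell cannot be told apart. The libraries of set 1 stood apart in the whole lists: 3297 peaks passed log2 3 in WT set 1 and 1016 in KO set 1, against 3479 and 3148 in set 2, and introns held 39.5% of the listed peaks in KO set 1 and 21.4% in WT set 1. Every value below is therefore given by set. With 2 libraries a genotype, the smallest 2-sided exact permutation p is 0.333, so no genotype difference was tested, and the −log10 p of a peak compares 2 libraries rather than 2 genotypes.

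A peak was called enriched when its log2 fold over input and its −log10 p were both at least 3, on the values in the authors' deposited lists. In WT set 1, 6 of the 111 member peaks were enriched (5.41%), beside 3.57% of all listed peaks of that library. They were 3 peaks of Trim63 and 3 of Fbxo40. None of 141 was enriched in KO set 1 (0.848% of all peaks), none of 180 in WT set 2 (1.42%) and none of 187 in KO set 2 (1.23%). At a lower log2 fold of 1, with the same −log10 p, members passed in every library: 16 of 111 in WT set 1 (14.4%, against 7.14% of all peaks), 4 of 141 in KO set 1 (2.84% against 1.99%), 26 of 180 in WT set 2 (14.4% against 5.37%) and 13 of 187 in KO set 2 (6.95% against 4.72%). Of these, Trim63 held 7, 4, 7 and 6 in the same order, Fbxo40 held 6, 0, 8 and 4, Fbxo32 held 2, 0, 10 and 3, and Trim54 held 1 in each WT library. Trim55 and Fbxo30 held none.

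**Figure D1:**
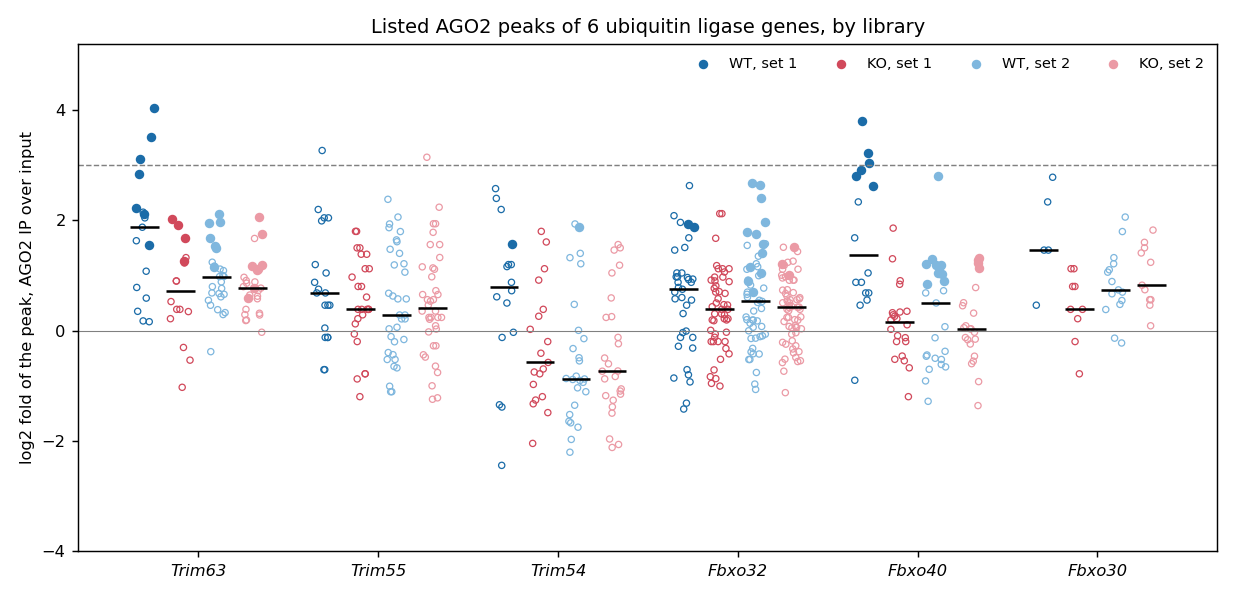
Log2 fold of every listed peak over input (y axis) in the 6 genes (x axis), by library; filled points have a −log10 p of at least 3, black bars are medians over peaks and the dashed line is log2 3. Points above the dashed line that are filled occur only in WT set 1, in Trim63 and Fbxo40.

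Of the 6 genes, Trim63 had the largest share of its joined sites listed in all 4 libraries, 8 of 10, whatever their value. Only 1 of its sites was intronic. Among coding sites alone the counts were 7 of 8 in Trim63, 7 of 7 in Fbxo32 and 6 of 7 in Trim54. In Trim55 they were 7 of 10, in Fbxo40 3 of 4 and in Fbxo30 2 of 6. The gene lies on chr4:134315120-134329629 (plus strand), with a coding sequence of 1065 nt and a 3′ UTR of 717 nt. The median log2 fold over its listed peaks was 1.87 in WT set 1, 0.71 in KO set 1, 0.98 in WT set 2 and 0.77 in KO set 2. All 4 were above the medians of the whole lists, which were 0.68, 0.38, 0.47 and 0.45. At log2 1, 7 of 17 Trim63 peaks passed in WT set 1, 4 of 16 in KO set 1, 7 of 27 in WT set 2 and 6 of 26 in KO set 2. These shares, 41.2%, 25%, 25.9% and 23.1%, stood above the backgrounds of 7.14%, 1.99%, 5.37% and 4.72% in the same libraries.

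The peak with the largest log2 fold and a −log10 p of at least 3 was at the same 3′ UTR position in every library. In WT set 1 it lay at chr4:134329172-134329296 with a log2 fold over input of 4.04 (−log10 p 25.4). In KO set 1 the peak at chr4:134329163-134329300 had a log2 fold of 2.02 (−log10 p 10.2). In WT set 2 the peak at chr4:134329158-134329308 had a log2 fold of 2.12 (−log10 p 51.4), and in KO set 2 the peak at chr4:134329161-134329226 had one of 2.07 (−log10 p 23.5). WT set 1 was thus high, and the other 3 libraries lay between 2.02 and 2.12. The adjoining stretch downstream, from chr4:134329297 in WT set 1, had log2 folds of 3.11, 1.26, 1.68 and 1.10 in WT set 1, KO set 1, WT set 2 and KO set 2, with WT above KO in each set.

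The miR-23 word printed above began 260 nt into the 3′ UTR, and the miR-29 word began at nt 299. Both words lay within 25 nt of a listed peak in all 4 libraries. They were the only words of 10 microRNA families searched that occurred in the Trim63 3′ UTR. The word of miR-486-5p was not among them. Its single occurrence in Trim63 was in the coding sequence, at nt −322 relative to the first base after the stop codon, where all 4 libraries listed a peak. The log2 fold over input there was 0.16 in WT set 1, 0.34 in KO set 1, 0.76 in WT set 2 and 0.80 in KO set 2, with −log10 p from 0.0864 to 2.30, so the peak was not called in any library. The KO libraries, which lack miR-486, were level with or above WT at this word in both sets.

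**Figure D2:**
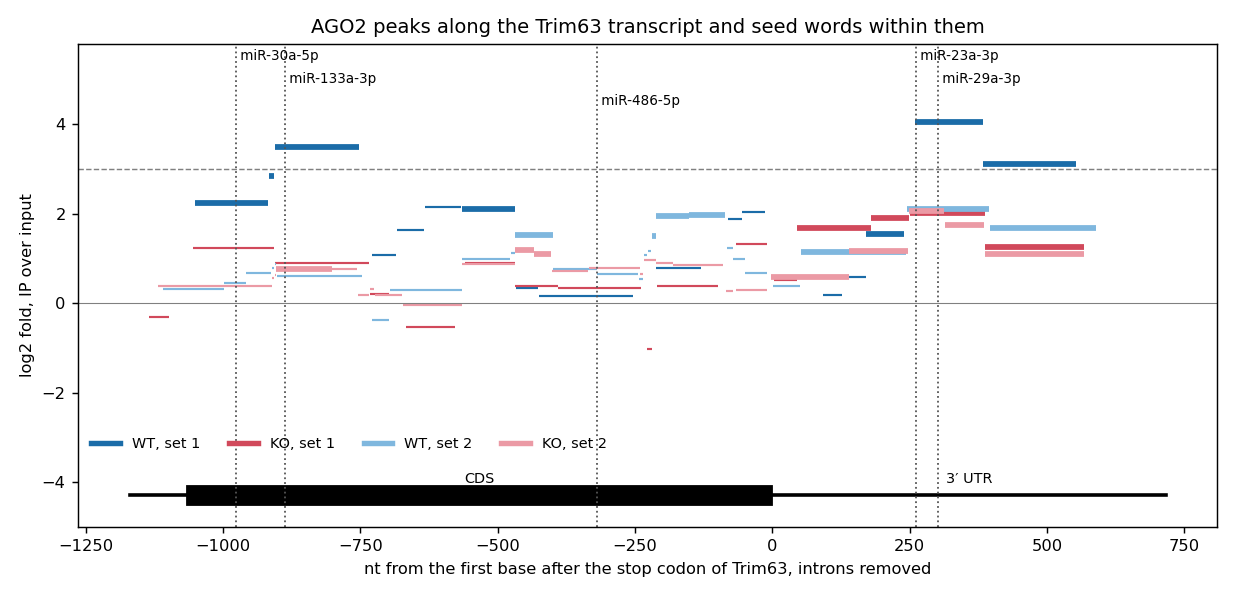
Listed peaks along the spliced Trim63 transcript (x axis, nt from the first base after the stop codon; negative values are upstream), each drawn as a bar at its log2 fold over input (y axis), thick where −log10 p is at least 3; dotted lines mark seed words. The highest bars of all 4 libraries lie over the miR-23 and miR-29 words in the 3′ UTR, at 4.04, 2.02, 2.12 and 2.07, and the bars over the miR-486-5p word are all at or below 0.80.

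The third enriched Trim63 peak was coding. It lay at chr4:134316385-134316541, over a miR-133 word, with a log2 fold of 3.51 (−log10 p 10.5) in WT set 1. The peaks that overlapped it most had log2 folds of 0.90 in KO set 1, 0.61 in WT set 2 and 0.78 in KO set 2, so it was high in 1 library of 4. Coding peaks of Trim63 as a whole had a median log2 fold of 1.96 in WT set 1, 0.38 in KO set 1, 0.84 in WT set 2 and 0.68 in KO set 2. Its 3′ UTR peaks had medians of 1.55, 1.68, 1.42 and 1.18 in the same order. The 3′ UTR was therefore above the coding sequence in 3 of 4 libraries, with WT set 1 the exception. Over all listed peaks the 3′ UTR was above the coding sequence in every library. The 3′ UTR medians there were 0.87, 0.61, 0.60 and 0.56, and the coding medians 0.68, 0.12, 0.21 and 0.18.

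The direct lists give, at each WT peak, the log2 ratio of WT to KO IP reads, and at each KO peak the reverse. Each list takes its peaks from the library in the numerator. The median over all peaks was above 0 in every one: 0.74 and 0.72 in set 1 and 0.30 and 0.27 in set 2. None of the Trim63 peaks passed the thresholds in any direct list. At a log2 fold of 1, 12 of 111 member peaks passed in WT over KO of set 1, where 4.85% of all peaks did, and 5 of them were in Trim63. In KO over WT of set 1, 3 of 141 passed (0.755% of all peaks), all in Fbxo32. None of 180 passed in WT over KO of set 2 (0.403%) and none of 187 in KO over WT of set 2 (0.144%). The median WT-over-KO fold of Trim63 was 0.66 over 17 peaks in set 1 and −0.03 over 27 peaks in set 2, a mean of 0.32 ± 0.49 (SD, n = 2 sets). The median KO-over-WT fold at its KO peaks was −0.53 over 16 peaks in set 1 and 0.03 over 26 peaks in set 2. Of the WT peaks, 14 of 17 were above 0 in set 1, where 80.4% of all peaks were, and 12 of 27 in set 2, where 67.1% were. Of the KO peaks, 1 of 16 was above 0 in set 1, where 67.5% of all peaks were, and 14 of 26 in set 2, where 62.6% were. At WT peaks Trim63 was thus near the whole list in set 1 and below it in set 2, and at KO peaks it was below the whole list in both sets, by far more in set 1. Muscle fibre markers had similar medians of gene medians, 0.73 and −0.03 in WT over KO and −0.68 and 0.02 in KO over WT of sets 1 and 2. Red cell markers, with 6 to 11 peaks a list, had 1.66 and 1.51 in WT over KO and −1.43 and −1.52 in KO over WT. Macrophage markers had 1.74 and 1.08 in WT over KO and 1.001 and −0.83 in KO over WT. The part of these cell types in the Trim63 values was not tested.

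The 3′ UTR of Trim63 was the exception, since it was higher in WT in both sets. At the peak over the miR-23 and miR-29 words, the WT-over-KO log2 fold was 0.81 in set 1 (−log10 p 8.71) and 0.28 in set 2 (−log10 p 3.16). At the adjoining downstream peak it was 1.02 (−log10 p 17.5) and 0.36 (−log10 p 4.80). At the KO peaks over the words, the KO-over-WT fold was −0.87 in set 1 and −0.45 in set 2. The WT values sat near those of other bound 3′ UTRs: the 1738 3′ UTR peaks of WT set 1 that passed log2 1 over input had a median WT-over-KO fold of 0.87 (quartiles 0.39 and 1.42), and the 4298 of WT set 2 one of 0.25 (quartiles 0.00 and 0.50). The KO values lay below those of other bound 3′ UTRs, whose median KO-over-WT fold was −0.07 in set 1 (lower quartile −0.71) and −0.15 in set 2 (lower quartile −0.39).

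**Figure D3:**
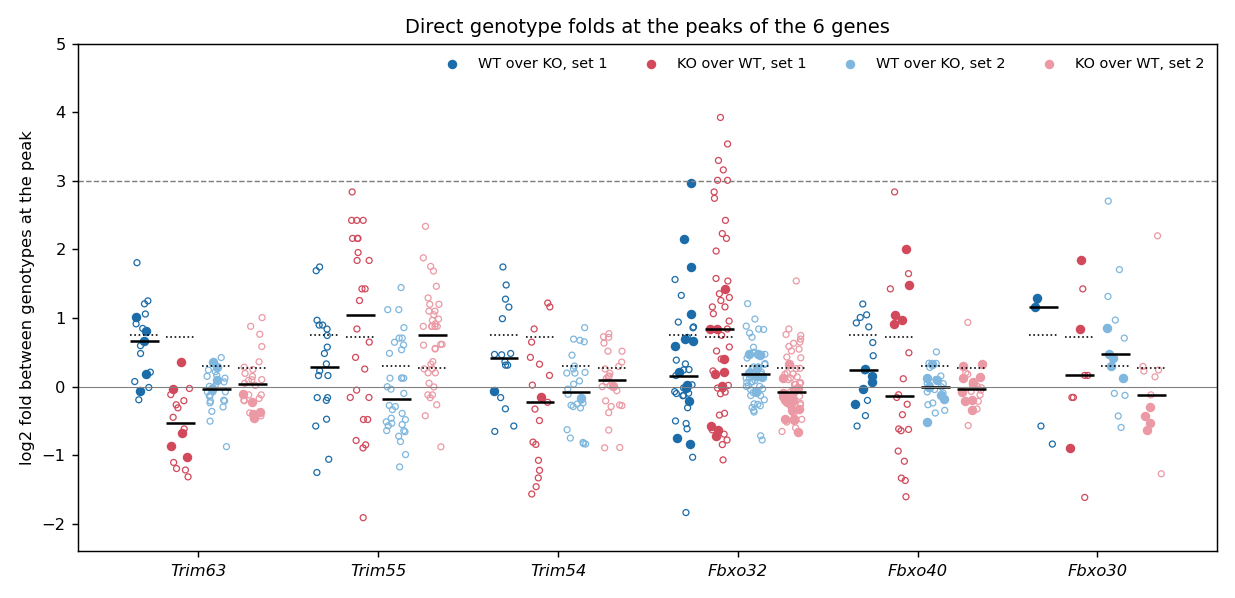
Log2 fold between genotypes at every listed peak (y axis) of the 6 genes (x axis), WT over KO at WT peaks and KO over WT at KO peaks, by set; filled points are 3′ UTR peaks, solid bars are gene medians, dotted bars are medians of the whole list and the dashed line is log2 3. The Trim63 medians were 0.66, −0.53, −0.03 and 0.03 from left to right, and the points of Fbxo32 above the dashed line belong to KO set 1.

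Trim55 and Trim54 encode MuRF2 and MuRF3, which bind the sarcomere and microtubules and can pair with MuRF1. Neither had an enriched peak in any library. Trim55 (chr3:19644474-19692421, plus strand) listed 20, 26, 34 and 38 peaks in WT set 1, KO set 1, WT set 2 and KO set 2, and not 1 of these 118 peaks reached a −log10 p of 3 over input. Its 3′ UTR of 825 nt had no listed peak in any library, and 8, 17, 22 and 25 of its peaks were intronic. An annotated transcript, BC002189, lies on the same strand within the gene, so intronic signal there cannot be given to Trim55 alone. The median log2 fold over input was 0.68, 0.38, 0.28 and 0.41, at or below those of the whole lists.

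In the direct lists Trim55 stood below the whole lists at WT peaks and above them at KO peaks in both sets. Its WT-over-KO median was 0.28 in set 1 and −0.19 in set 2, below the whole-list medians of 0.74 and 0.30. Its KO-over-WT median was 1.05 in set 1 and 0.75 in set 2, above those of 0.72 and 0.27. Of its KO peaks of set 2, 31 of 38 were above 0, where 62.6% of all peaks were. Its intronic peaks had KO-over-WT medians of 1.84 and 0.88, against 1.43 and 0.69 over all intronic peaks. Its coding peaks had −0.16 and 0.36, against −0.16 and 0.04 over all coding peaks, so that in set 2 both stood above their background. At WT peaks its coding medians were 0.84 in set 1 and −0.51 in set 2, against 0.82 and 0.05 over all coding peaks. Its intronic medians there were −0.16 and 0.12, against 1.16 and 0.71 over all intronic peaks. In set 1 the coding WT peaks were thus near their background, and only the intronic ones stood below it. None of these peaks passed the thresholds.

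Trim54 (chr5:31116712-31137630, plus strand) was densely covered but mostly not above input. Listed exonic peaks covered 774 to 970 nt per kb of its exons, the most of the 6 genes, while its median log2 fold over input was 0.80 in WT set 1, −0.58 in KO set 1, −0.88 in WT set 2 and −0.74 in KO set 2. WT set 1 was thus above input and the other 3 libraries below it. Its coding peaks had a median of 0.67 in WT set 1 and of −0.98, −0.94 and −1.08 in the others. Only 2 of its 87 peaks reached a −log10 p of 3, a coding peak of WT set 1 with a log2 fold of 1.57 and an intronic peak of WT set 2 with one of 1.88. The overlapping peaks of the coding one had log2 folds of −0.98, −0.88 and −0.60 in KO set 1, WT set 2 and KO set 2. The WT-over-KO median of Trim54 was 0.41 in set 1 and −0.08 in set 2.

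Fbxo32 gave the longest 3′ UTR of the group, 5590 nt, on chr15:58175879-58214932 (minus strand). It listed 37, 49, 53 and 64 peaks in WT set 1, KO set 1, WT set 2 and KO set 2, with medians of 0.75, 0.38, 0.53 and 0.42. No peak was enriched at log2 3. The 3′ UTR peak with the highest −log10 p was the same in every library and lay over the let-7 word printed above, which began at nt 544 of the 3′ UTR. The log2 fold over input there was 1.87 in WT set 1 (−log10 p 8.54), 0.81 in KO set 1 (−log10 p 2.35), 1.79 in WT set 2 (−log10 p 31.3) and 1.51 in KO set 2 (−log10 p 24.8). KO set 1 was the low library, and the other 3 lay between 1.51 and 1.87. The WT-over-KO fold was 0.60 in set 1 and 0.20 in set 2, and the KO-over-WT fold was −0.63 and −0.22.

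Upstream of the let-7 word, miR-23 words began at nt 175 and nt 368 of the same 3′ UTR, with listed peaks in 3 and 2 libraries. At nt 175 the log2 folds over input were 0.90 in KO set 1, 0.69 in WT set 2 and 0.25 in KO set 2. At nt 368 the fold in WT set 2 was 1.97 (−log10 p 23.3), above the 1.79 at the let-7 word. In KO set 2 a single peak covered both, so its value belongs to neither word alone. The miR-486-5p word began at nt 1559 and had no listed peak within 25 nt in any library. The same word occurred in or within 25 nt of 2 intronic Fbxo32 peaks, each listed in 1 library. The WT set 2 peak at chr15:58190232-58190296 had a log2 fold of 2.64 over input (−log10 p 4.52) and of 0.83 over KO (−log10 p 1.37). The other, in KO set 1, lay beside the word and had a log2 fold over input of 0.21.

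The only member peaks past the thresholds in a direct list were 2 intronic Fbxo32 peaks of KO set 1. That is 2 of 141 member peaks in KO over WT of set 1, where 0.179% of all peaks passed, and 0 of 111 in WT over KO of set 1 (0.469%), 0 of 180 in WT over KO of set 2 (0.0192%) and 0 of 187 in KO over WT of set 2 (0.0144%). They lay at chr15:58188999-58189086, with a KO-over-WT log2 fold of 3.01, and at chr15:58199353-58199402, with one of 3.93. Over input their log2 folds were 0.97 and 0.30, so neither was enriched over input. The first overlapped no listed peak of another library, and the second overlapped a peak of KO set 2 with a KO-over-WT fold of 0.05. Introns held 31 of the 49 Fbxo32 peaks in KO set 1 and 10 of 37 in WT set 1, the library pair in which the whole lists also differed in their intron share. In set 2 introns held 28 of 64 in KO and 24 of 53 in WT. The part of the intron share in these calls was not tested.

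Fbxo40 encodes an F-box protein whose complex tags the insulin receptor substrate IRS1. The gene lies on chr16:36963460-36990467 (minus strand). Its peaks stood higher over input in the coding sequence than in the 3′ UTR. All 3 enriched peaks of WT set 1 fell in its coding sequence, at chr16:36969736-36969823 with a log2 fold of 3.81 (−log10 p 7.51), at chr16:36970378-36970447 with 3.21 (−log10 p 8.63) and at chr16:36970448-36970500 with 3.04 (−log10 p 7.14). The second lay over the miR-206 word printed above, which miR-1 shares. There KO set 1 had 1.30, WT set 2 had 1.30 and KO set 2 had 1.32, so that WT set 1 was high and the other 3 were level. The KO set 2 peak, at chr16:36970326-36970708, covered both the second and the third, so its value belongs to neither alone. The peaks that overlapped the first most had 0.32 in KO set 1, 1.04 in WT set 2 and 0.78 in KO set 2. Those at the third had 1.86, 1.19 and 1.32 in the same order.

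Over all coding peaks of Fbxo40 the median log2 fold was 2.87 in WT set 1, 0.34 in KO set 1, 1.03 in WT set 2 and 0.64 in KO set 2. Over its 3′ UTR peaks it was 0.68, −0.55, −0.59 and −0.36, lower in every library and below input in 3 of 4. None of its 3′ UTR peaks reached a −log10 p of 3. An intronic peak over a let-7 word, at chr16:36986965-36987102, had the largest log2 fold of WT set 2 among Fbxo40 peaks past that −log10 p, 2.80 (−log10 p 3.95), with overlapping peaks at 1.68 in WT set 1 and 0.28 in KO set 1 and none in KO set 2. At log2 1, 6 of 16 Fbxo40 peaks passed in WT set 1, 0 of 22 in KO set 1, 8 of 25 in WT set 2 and 4 of 22 in KO set 2. Its WT-over-KO median was 0.24 in set 1 and 0.00 in set 2, a mean of 0.12 ± 0.17 (SD, n = 2 sets).

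**Figure D4:**
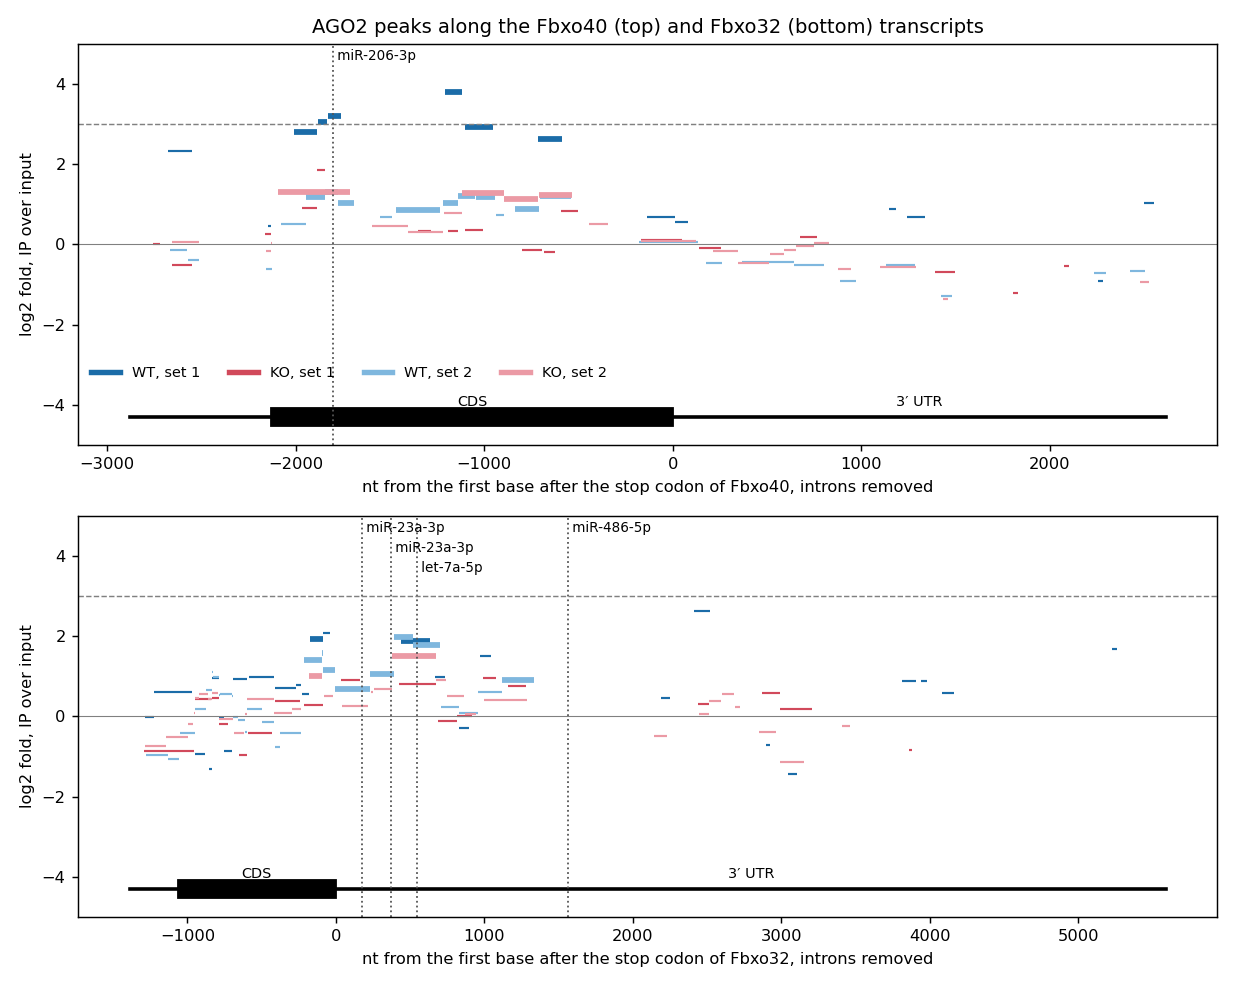
Listed peaks along the spliced Fbxo40 (top) and Fbxo32 (bottom) transcripts (x axis, nt from the first base after the stop codon), each drawn as a bar at its log2 fold over input (y axis), thick where −log10 p is at least 3; dotted lines mark seed words. Thick bars of Fbxo40 lie in the coding sequence and none in the 3′ UTR, while those of Fbxo32 gather around the stop codon and the let-7 word, and no bar crosses the miR-486-5p line.

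Fbxo30 (MUSA1), an F-box gene induced after denervation, was the least covered. On chr10:11281330-11298052 (plus strand) it listed 5, 9, 15 and 11 peaks, which covered 82.7 to 250 nt per kb of its exons, and none of the 40 reached a −log10 p of 3 over input. The median log2 fold over input was 1.46 in WT set 1, 0.38 in KO set 1, 0.74 in WT set 2 and 0.82 in KO set 2. Its WT-over-KO median of 1.16 in set 1 rested on 5 peaks, and that of 0.47 in set 2 on 15. From its KO peaks, with the sign turned, the same fold was −0.16 in set 1 and 0.12 in set 2. The highest −log10 p over input was 2.80, at a coding peak of KO set 2. With so few listed peaks, these medians carry little weight.

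**Figure D5:**
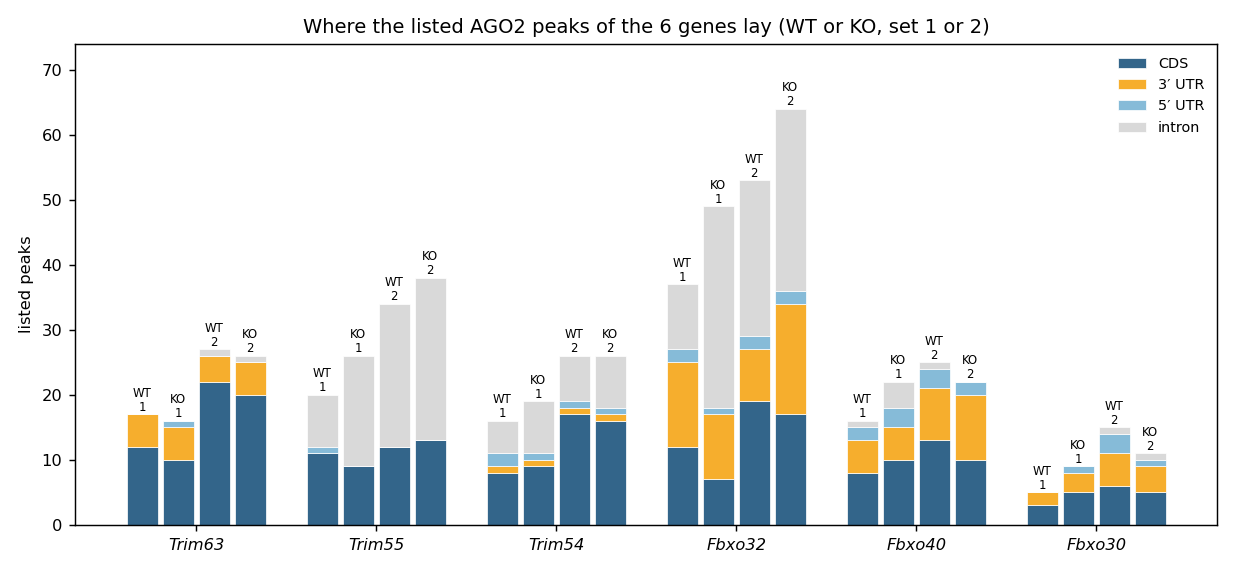
Number of listed peaks (y axis) in each gene (x axis) and library, stacked by the part of the gene that holds the middle of the peak. Trim63 peaks are nearly all exonic, Trim55 has no 3′ UTR peak, and intronic peaks make up 31 of 49 Fbxo32 peaks in KO set 1.

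Across the 6 genes the 3′ UTR held 23.4% of the listed peaks in WT set 1 (26 of 111, 95% Wilson interval 16.5 to 32.1), 17% in KO set 1 (24 of 141, 11.7 to 24.1), 14.4% in WT set 2 (26 of 180, 10.1 to 20.3) and 19.8% in KO set 2 (37 of 187, 14.7 to 26.1). These intervals cover counting error only. Over all listed peaks the shares were 19.3%, 18.3%, 12.2% and 11.4%. The mean was 18.9% ± 6.35 in WT and 18.4% ± 1.96 in KO (SD, n = 2 sets), a difference smaller than the spread within WT. When overlapping or adjoining peaks of the 4 libraries were joined, the members fell into 186 sites, of which 49 were listed in all 4 libraries and 92 in a single one. Coding sites recurred most, with 32 of 42 in all 4 libraries. Among 3′ UTR sites 4 of 26 did, and among intronic sites 9 of 111. The longest exact run shared by the exons of any pair was 28 nt, between Trim63 and Trim54, so reads within that run could come from either gene.

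Seed words of 10 microRNA families were searched on the gene's strand in each member peak extended by 25 nt on both sides: GTACAGG (miR-486-5p), GGACCAA (miR-133), AGTCCAG (miR-378), AATGTGA (miR-23), ACTGTGA (miR-27), ACATTCC (miR-206), CTACCTC (let-7), TGGTGCT (miR-29), TGTTTAC (miR-30) and TACTTGA (miR-26). The miR-486-5p word was in 1 of 111 member peaks in WT set 1 (0.901%, against 0.677% of all listed peaks), 2 of 141 in KO set 1 (1.42% against 0.596%), 4 of 180 in WT set 2 (2.22% against 0.777%) and 2 of 187 in KO set 2 (1.07% against 0.801%). None of the 26, 24, 26 and 37 member peaks in 3′ UTRs held it. The miR-23 word was in 1, 3, 5 and 5 of those 3′ UTR peaks. That is 3.85%, 12.5%, 19.2% and 13.5%, against 1.99%, 1.67%, 2.53% and 2.35% of all 3′ UTR peaks, and all of them fell at 1 word in Trim63 and 2 in Fbxo32. The miR-29 word was in 7.69%, 4.17%, 3.85% and 13.5% of the member 3′ UTR peaks, against 4.39%, 2.81%, 3.38% and 3.62%. The miR-30 word was in 0%, 4.17%, 7.69% and 8.11%, against 4%, 2.71%, 3.51% and 3.58%. The let-7 word was in 3.85%, 4.17%, 3.85% and 2.7%, against 2.71%, 1.72%, 2.31% and 2.23%. The miR-27 word was in 0%, 4.17%, 3.85% and 2.7%, against 2.66%, 2.11%, 2.87% and 2.74%. No member 3′ UTR peak held the word of miR-133, miR-378, miR-206 or miR-26. Neighbouring peaks share a word, so these counts are not independent, and the match of a word names neither the guide nor a functional site.

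The genes whose pattern was most like Trim63 were chosen by the distance between median log2 folds over the 8 lists, among 2558 protein-coding genes with at least 10 listed peaks in each. Nearest was Tob1, an antiproliferative regulator of mRNA decay, at a distance of 0.21, followed by Steap4, a metalloreductase, at 0.34 and Ctnnb1, which encodes beta-catenin, at 0.55. The median distance from Trim63 over all these genes was 2.18. For Fbxo32 they were Lamp2, a lysosomal membrane protein, at 0.21, Gm28635 at 0.34 and Kmt2e, a chromatin regulator, at 0.36, with a median over all genes of 1.37.

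Genes that act with these ligases were read from 3 lists. Among 28 genes of ubiquitin, SKP1-cullin and the proteasome, 8, 3, 3 and 3 had an enriched peak over input in WT set 1, KO set 1, WT set 2 and KO set 2. Enriched peaks were 7.4%, 1.06%, 2.63% and 2.13% of the list's peaks, against 3.57%, 0.848%, 1.42% and 1.23% of all peaks. Skp1a, the adaptor that joins F-box proteins to the cullin, had 5, 2, 4 and 4 enriched peaks, all but 1 of them coding. The proteasome lid gene Psmd8 had 7, 1, 8 and 6, all coding. Ube2j1, a ubiquitin-conjugating enzyme of the endoplasmic reticulum, had 6, 1, 4 and 3. These 3 genes thus had enriched peaks in every library. Psmb4 had 3 enriched peaks and Psma1 had 1, in WT set 1 and in no other library. In the direct lists Psmc4 passed in WT over KO of set 1 and Ube2d1 in KO over WT of set 1, with 1 peak each. That was 0.296% of the list's peaks against 0.469% of all peaks, and 0.264% against 0.179%.

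Among 24 genes of FOXO, AKT and myostatin signalling, 11, 3, 7 and 10 had an enriched peak. At 4.91%, 0.89%, 1.2% and 1.31% of its peaks, the list was near the shares over all peaks outside WT set 1. Foxo1, a FOXO factor that drives both atrophy ligases, had 3, 0, 2 and 1, Pik3r1 had 2, 0, 2 and 2, Smad4 had 4, 0, 0 and 1, and Smad3 had 1, 0, 1 and 2. In WT over KO of set 1, 9 of 56 Foxo1 peaks and 2 of 30 Smad3 peaks passed the thresholds. That was 11 of the list's 407 peaks (2.7%, against 0.469% of all peaks). The Foxo1 peaks had log2 folds from 3.03 to 4.55 and lay in the coding sequence (3), the 3′ UTR (4) and introns (2). In set 2 no Foxo1 peak passed, and its median WT-over-KO fold was −0.23 against 2.31 in set 1. In KO over WT of set 1, 2 of 35 Irs1 peaks passed, both in the 3′ UTR (0.356% of the list's peaks, against 0.179% of all peaks). No gene of the list passed in the direct lists of set 2.

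Among 16 genes of atrophy transcription and glucocorticoid response, 4, 2, 1 and 2 had an enriched peak. Enriched peaks were 5.19%, 1.25%, 0.429% and 0.658% of the list's peaks, above the share over all peaks in set 1 and below it in set 2. Hdac4, a deacetylase induced by denervation, had 3, 2, 2 and 2, all in its 3′ UTR. Tsc22d3 had 4, 1, 0 and 0, Myog had 3 and Nr3c1, the glucocorticoid receptor, had 2, both in WT set 1 alone, and Nfkb1 had 1 in KO set 2. In WT over KO of set 1, 5 peaks of Fkbp5, 2 of Myog and 1 of Hdac4 passed. That was 8 of the list's 231 peaks (3.46%, against 0.469% of all peaks). None passed in another direct list.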

How the data were processed

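Values were taken from the authors' deposited peak lists, 1 per library or genotype pair. The labels and methods give adapter trimming, alignment to GRCm38 with STAR, removal of duplicates by molecular identifier, peak calling per library with CLIPper and normalisation of each peak to a second library, followed by collapsing of overlapping peaks. The authors deposited a log2 fold and a −log10 p for each peak. The −log10 p is one-sided in these lists, reaches at most 400 and is 0 where the fold is below 0. Read counts are not part of these lists, so the depth is unknown and no interval could be put on a fold.

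Peaks were assigned to GENCODE M21 genes where 1 nt or more was shared in the gene's orientation. Each peak's region was that of the peak's midpoint, with the coding sequence before the UTR. Seed words were read from the RefSeq genome of the same build. Python 3.11.15 with numpy 2.4.6, pandas 2.3.3, scipy 1.17.1 and matplotlib 3.10.9 was used, and the overlap, region and merging functions were tested on simulated data. Groups came from the labels. The named genes were the 6 members, the mir-486 locus, genes of the pathway lists by number of peaks past the thresholds, and the nearest 3 genes by pattern. The windows printed for miR-29, let-7 and miR-206 words were chosen after their values were seen. The members, lists and tests were chosen with earlier results of these data known. Alternatives for thresholds, merging, regions, word length and sets were run.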

Additional observations from a re-analysis of the deposited data

How the results depend on the processing

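Enriched member peaks in WT numbered 6 as reported, 42 when a log2 fold of 1 sufficed and 1 when 4 was required, and leaving out 1 set gave 0 to 6, since all 6 came from WT set 1. In KO the count was 0 as reported and with either set left out, 17 when a log2 fold of 1 sufficed and 1 when a −log10 p of 2 did. Direct peaks of WT over KO went from 0 to 12 at a log2 threshold of 1. Those of KO over WT went from 2 to 0 when a log2 fold of 4 was required, to 0 when a −log10 p of 5 was, to 4 when a −log10 p of 2 sufficed and to 0 when a peak also had to overlap one enriched over input, and leaving out 1 set gave 0 to 2. The Trim63 WT-over-KO fold of 0.32 ranged from −0.03 without set 1 to 0.66 without set 2, was 0.30 on exonic peaks and 0.35 weighted by length, and was 0.25 from KO peaks with the sign turned. The 3′ UTR share in KO was 22.1% by nucleotides. Peaks with the miR-486-5p word numbered 2 in WT and 2 in KO without extension and 8 in each with a 6-nt word, and leaving out 1 set gave 1 to 4 in WT and 2 in KO. Of the alternatives for the folds of the other genes, 20 of 25 moved by less than the spread between sets. With 2 sets, leaving out 1 always moves the mean by less than that spread. Those alternatives could not fail, so the count is no measure of stability. Taken from KO peaks with the sign turned, the fold of Fbxo30 went from 0.81 to −0.02, that of Fbxo32 from 0.17 to −0.38 and that of Trim55 from 0.05 to −0.90. No paired analysis was possible because the results come from no test across samples, while the direct lists already set WT against KO within each set. The cause of these shifts was not tested. With 2 libraries a genotype, a peak seen in 1 set has no replicate.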

Other observations

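Relatives of the 6 genes were counted in the same way. Among 12 further TRIM and F-box genes, 112, 126, 259 and 267 peaks were listed in WT set 1, KO set 1, WT set 2 and KO set 2, of which 4, 0, 1 and 2 were enriched (3.57%, 0%, 0.386% and 0.749%, against 3.57%, 0.848%, 1.42% and 1.23% of all peaks). Fbxo3 held 3 in WT set 1 and 1 in KO set 2, all coding. Trim72 (MG53), a membrane repair protein of muscle, held 1 coding peak in WT set 1, Trim24 held 1 intronic peak in WT set 2 and Fbxo38 held 1 coding peak in KO set 2. None of the 12 genes passed the thresholds in a direct list.

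Among 19 other E3 ligases of muscle, 8, 1, 7 and 6 had an enriched peak in the same libraries, and 5.09%, 0.295%, 2.18% and 2.01% of the list's peaks were enriched. Over all peaks the shares were 3.57%, 0.848%, 1.42% and 1.23%. Nedd4, a HECT ligase induced in unloaded muscle, had 13, 0, 16 and 14 enriched peaks. Huwe1, a HECT ligase of large size, had 5, 2, 4 and 5, of which 4, 2, 4 and 4 were intronic. The enriched peaks of Huwe1 reached log2 folds of 5.94, 5.78, 7.07 and 6.87, and in KO set 1 they were the list's only ones. Other genes lying within the listed genes were not looked for, so the intronic peaks of Huwe1 cannot be given to its transcript alone. Ubr2 had 1, 0, 1 and 2 and Cblb, which targets IRS1, had 1, 0, 1 and 1. In the direct lists 1 coding peak of Ubr4 passed in WT over KO of set 1, and 2 intronic peaks of Nedd4 passed in KO over WT of set 1. That was 0.175% of the list's peaks against 0.469% of all peaks, and 0.295% against 0.179%.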
